A study of Mus musculus with 48 samples.

Results

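The brain lipid carriers described here are 10 genes: Mfsd2a, Apod, Apoe, Lpl, Fabp7, Fabp5, Fabp3, Abca1, Abcg1 and Lrp1. They were chosen by symbol from the 56893 genes of the deposited count table. All 10 were present, and all 10 passed the filter on low counts that left 17352 genes for testing. Poly-A RNA had been sequenced from 1 brain hemisphere of each of 48 mice, 1 library per mouse, in 12 groups of 4 given by sex, genotype and feeding state. Control mice were labelled Grin1fl/fl, with both copies of Grin1, the obligatory NMDA receptor subunit gene, flanked by recombination sites. Knockout mice were labelled Aldh1a1+/P2A-CreERT2::Grin1fl/fl, so they carried the same flanked copies plus an inducible recombinase expressed from 1 Aldh1a1 allele. The loss of Grin1 is thereby limited by design to cells that express Aldh1a1. The control named female control unrestricted replicate 2 was labelled Grin1fl/+ and has 1 flanked allele. Every mouse was housed alone, with chow and water, before collection. Unrestricted mice kept their chow, restricted mice were taken after 2 nights of food restriction with chow in between, and refed mice were taken after that restriction and 3 days of free grain-based pellets from an automatic device. Ages ran from 5.5 to 8.5 months.

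The libraries held between 7574827 and 16185373 estimated counts, with a median of 10515486. Levels are given as CPM, counts scaled to the library's size with the TMM correction. Changes are on the log2 scale with the standard error (SE) from edgeR's quasi-likelihood test, and a gene is called at a Benjamini-Hochberg adjusted p under 0.05 over the 17352 genes. Grin1, the targeted gene, averaged 351 CPM ± 49.3 (SD, n = 24) over the controls and 356 ± 29.4 over the knockouts. Aldh1a1, which carries the insertion, averaged 190 ± 27.3 and 101 ± 16.7, a log2 difference of -0.92 (edgeR adjusted p = 1.4e-16), while that of Grin1 was 0.02 (adjusted p = 1.0). An inducing drug is not given in the sources used here. Markers of brain cells were abundant in every library, with summed levels of 4783 to 6461 CPM for 7 neuron markers and 3756 to 4916 CPM for 10 astrocyte markers. Male control refed replicate 1 and female control restricted replicate 2 stood apart by 6 skeletal muscle markers, which summed to 4698 and 292.1 CPM there against at most 23.3 CPM elsewhere. Library names carry running numbers that are uneven between feeding states: 5 of 16 unrestricted, 7 of 16 restricted and 16 of 16 refed libraries are numbered up to 28, and the others from 29. The labels do not say what these numbers stand for.

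The brain is largely cut off from the lipoproteins of the blood and makes its own cholesterol. Astrocytes export cholesterol and phospholipid through the transporters ABCA1 and ABCG1 onto particles that carry apolipoprotein E (APOE), and neurons and other cells take these particles up through receptors such as LRP1. Fatty acids reach the brain by other routes: MFSD2A, a transporter of the blood-brain barrier endothelium, takes up docosahexaenoic acid in the form of lysophosphatidylcholine. Inside cells, fatty acid binding proteins (FABP) hold fatty acids in solution, and apolipoprotein D (APOD), a lipocalin made by glia, binds arachidonic acid and other small hydrophobic molecules.

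The 3 members with the largest changes lie on different chromosomes of GRCm39. Mfsd2a is at chr4:122840643-122855244 on the minus strand, Apod at chr16:31115010-31135355 on the minus strand and Fabp7 at chr10:57660956-57664554 on the plus strand, all annotated as protein-coding in GENCODE M39. Promoter sequences are printed because Mfsd2a and Apod rose together and Fabp7 moved the other way. They come from the RefSeq promoter windows (GRCm38.p6, 250 bases before to 50 after the RefSeq start), each of which has 1 exact match in GRCm39. Capitals mark matches, on either strand, to 5 short motifs: TGTTCT (the core of a glucocorticoid receptor half-site), AGGTCA (a nuclear receptor half-site), CACGTG (an E-box), TATAAA and CCAAT. For Apod (chr16:31133654-31133876) and Fabp7 (chr10:57660769-57660955) the stretch before the canonical GENCODE transcript is shown, and that of Apod lies in an intron of a longer Apod transcript. The Mfsd2a window falls in first exons of other Mfsd2a transcripts, so 30 bases around each match are shown (chr4:122855177-122855206 and chr4:122855018-122855047). All are written 5′ to 3′ on the strand of the gene.
Mfsd2a, AGGTCA: gggacctcggacAGGTCActttcagcctgg
Mfsd2a, CCAAT: gcgcgtgcagggATTGGctggaggcgcagg
Apod: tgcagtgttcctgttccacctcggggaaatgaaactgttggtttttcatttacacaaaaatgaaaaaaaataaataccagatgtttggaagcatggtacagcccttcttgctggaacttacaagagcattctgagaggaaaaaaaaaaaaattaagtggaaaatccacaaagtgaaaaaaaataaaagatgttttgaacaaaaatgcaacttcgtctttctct
Fabp7: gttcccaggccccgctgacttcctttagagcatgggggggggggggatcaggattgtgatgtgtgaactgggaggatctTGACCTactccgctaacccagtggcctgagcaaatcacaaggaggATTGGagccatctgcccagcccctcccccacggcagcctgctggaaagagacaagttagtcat
Counted from the RefSeq start, the Mfsd2a window held AGGTCA at position -213 and CCAAT, read on the other strand as ATTGG, at -54. The Fabp7 window held AGGTCA, read as TGACCT, at -171 and CCAAT at -126 and -56, the latter inside the transcript by GENCODE's start. The Apod window held none of the 5. Of 32544 RefSeq windows of 300 bases, 16.2% held AGGTCA, 37.4% CCAAT, 18.9% TGTTCT, 13.6% TATAAA and 7.17% CACGTG, so the matches are of a common kind. RefSeq windows were matched for 7 of the 10 members.

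Per kilobase of the canonical transcript, Apoe was the most abundant member, at 499 CPM per kb ± 65.8 (SD, n = 48). Apod (105 ± 32.8) and Fabp5 (97.2 ± 12.5) followed, in an order that turned with feeding. In unrestricted mice Apod was at 82.2 ± 8.29 and Fabp5 at 100.8 ± 10.6 CPM per kb (n = 16), and in restricted mice at 148 ± 16.4 and 93.0 ± 13.2. Fabp3 stood at 63.4 ± 9.07 CPM per kb over all mice. Lrp1 (35.1 ± 3.60) and Fabp7 (31.4 ± 14.1) also changed places. Fabp7 was at 47.5 ± 11.1 CPM per kb in unrestricted and 21.9 ± 8.01 in restricted mice, against 34.9 ± 2.34 and 35.9 ± 3.77 for Lrp1. Over all mice Abcg1 was at 14.4 ± 1.12 and Mfsd2a at 7.92 ± 3.20. Abca1 (4.19 ± 0.60) and Lpl (3.88 ± 1.16 CPM per kb) were lowest and did not differ beyond their spread. Within the 12 groups, Fabp7 varied most between mice, with an SD of 0.41 in log2 CPM, and Abcg1 least, with 0.11. The estimated counts of 7 members were whole numbers in all 48 libraries. Those of Apoe were whole in 43, of Fabp5 in 19 and of Fabp3 in 2, within a tolerance of 0.002, and fractions arise where reads are divided between related sequences. The pseudogene Fabp3-ps1 had a mean count of 3.28 per library. On the opposite strand, annotated exons of Zcchc17 share 1960 bases with exons of Fabp3, and those of Gm41442 share 782 with Apod. They had mean counts of 616 and 23.5 per library. Whether reads were counted by strand is not stated, so reads from these stretches may count for either gene.

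Food restriction raised Mfsd2a and Apod and lowered Fabp7 in both sexes. In females edgeR called 3 of the 10 members (6.27% of all genes tested), 2 of them higher (3.02%) and 1 lower (3.25%). In males it called 4 of 10 (8.28%), 3 higher (4.44%) and 1 lower (3.83%), the fourth being Abca1. The median log2 change over the 10 members was 0.08 in females and 0.03 in males, against -0.01 and 0.00 over all genes, so the members did not move in 1 direction.

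Mfsd2a, the lysophosphatidylcholine transporter, ranged from 10 to 13.9 CPM (median 11.7) in the 8 unrestricted females and from 19.8 to 32.6 CPM (median 25.7) in the 8 restricted females. In males it ranged from 9.35 to 19.1 CPM (median 11.8) without restriction and from 21.9 to 28.4 CPM (median 25.01) after it. Every restricted mouse was above every unrestricted mouse of its sex. The log2 change was 1.14 ± 0.10 (SE, 2.21-fold, edgeR adjusted p = 3.0e-11) in females and 1.07 ± 0.10 (2.10-fold, adjusted p = 8.0e-11) in males. The highest unrestricted value, 19.1 CPM in male control unrestricted replicate 1, stood apart from the other 15 unrestricted mice, which lay between 9.35 and 13.9 CPM.

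Apod ranged from 156 to 224 CPM (median 178) in unrestricted and from 281 to 346 CPM (median 305) in restricted females. In males it ranged from 150.1 to 178 CPM (median 169) and from 256 to 371 CPM (median 295). Again no restricted mouse overlapped an unrestricted mouse of its sex. The log2 change was 0.80 ± 0.07 (1.74-fold, edgeR adjusted p = 3.5e-11) in females and 0.89 ± 0.07 (1.86-fold, adjusted p = 2.1e-12) in males. Groups of 8 against 8 without overlap were found for 1.16% of genes in females and 1.55% in males, and Mfsd2a and Apod were the members among them.

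**Figure D1:**
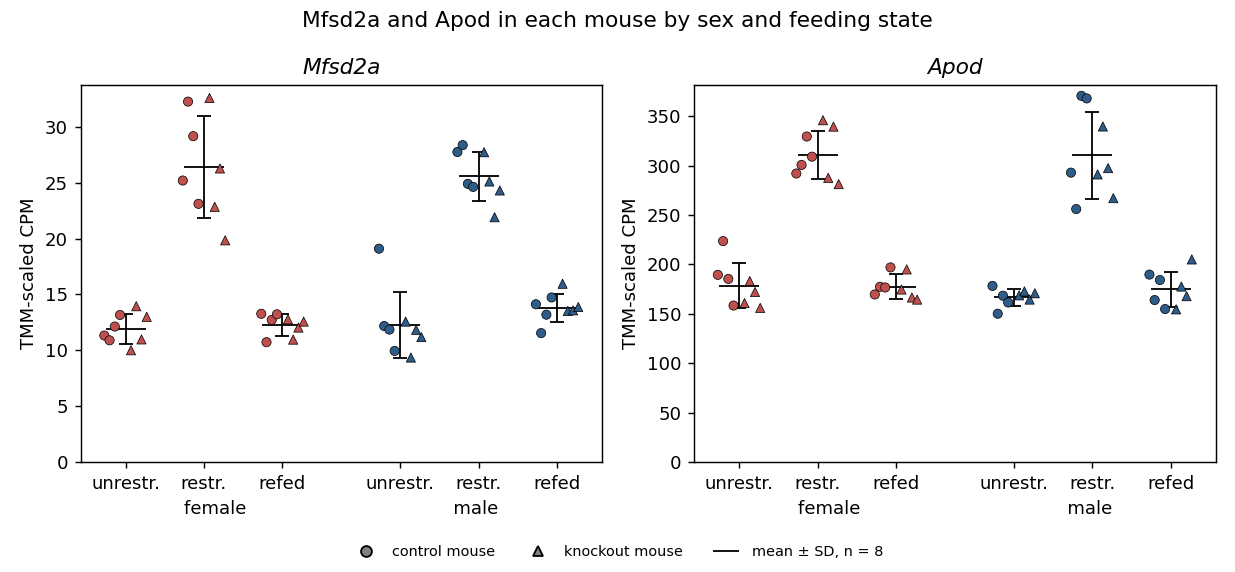
Level of Mfsd2a (left) and Apod (right) in each mouse, in TMM-scaled CPM on a linear axis from 0, by sex and feeding state. Circles are control and triangles knockout mice, and lines show the mean ± SD of 8 mice. All 16 restricted mice lie above the unrestricted and refed mice of their sex in both panels.

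Fabp7, the fatty acid binding protein of astrocytes and radial glia, fell. It ranged from 31.4 to 66.4 CPM (median 46.2) in unrestricted and from 12.9 to 38.6 CPM (median 19.4) in restricted females, and from 27.6 to 53.6 CPM (median 48.7) and 10.9 to 27.9 CPM (median 20.5) in males. In each sex 7 of 8 restricted mice were below all unrestricted mice. The log2 change was -1.11 ± 0.19 (edgeR adjusted p = 7.3e-05) in females and -1.16 ± 0.19 (adjusted p = 2.4e-05) in males. The overlap came from female control restricted replicate 3 at 38.6 CPM and from male knockout restricted replicate 2 at 27.9 CPM.

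Abca1, the exporter that loads lipid onto APOE particles, changed less. In the 8 males of each state it ranged from 36.1 to 45.7 CPM (median 39.98) without restriction and from 42.6 to 62.4 CPM (median 49.0) after it, and 6 of 8 restricted males were above all unrestricted males. Abca1 changed on the log2 scale by 0.33 ± 0.08 in males (edgeR adjusted p = 0.0039) and its difference was 0.15 ± 0.08 in females (adjusted p = 0.31), and the difference between the sexes, 0.18 ± 0.11, was not called (adjusted p = 0.80). In libraries numbered up to 28 alone, where some groups held a single mouse, the male difference was 0.23 and was not called. Abcg1, its partner in cholesterol export, differed by 0.10 ± 0.06 (edgeR adjusted p = 0.33) in females and 0.11 ± 0.06 (adjusted p = 0.29) in males. The Abca1 window, with none of its sequence shown, held CACGTG at -147, TGTTCT at -78 and TATAAA at -29 from the RefSeq start. Of the 3 windows of Apoe, which was not called for restriction in either sex with the genotypes averaged, 1 held TATAAA at -100 and -96 and another TGTTCT at -226 and 29. The windows of Fabp3 and Lrp1 held none of the 5 motifs.

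The other members did not pass the test for restriction in either sex with the genotypes averaged. Apoe, the main carrier protein of brain lipoproteins, had a log2 difference of 0.16 ± 0.07 for females and of -0.05 ± 0.07 for males. Those of Lpl, the lipase that releases fatty acids from lipoprotein triglycerides, were 0.06 ± 0.16 and -0.25 ± 0.16. Lrp1, the uptake receptor, had -0.03 ± 0.08 and 0.11 ± 0.08. Fabp5 (-0.05 ± 0.08 and -0.19 ± 0.08) and Fabp3 (-0.02 ± 0.09 and -0.10 ± 0.09), relatives of Fabp7 expressed in many cell types, had negative values in both sexes. Fabp5 was called in males only when male control restricted replicate 3 was left out, at -0.26 with an adjusted p of 0.0382.

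On refeeding, Mfsd2a and Apod fell from their restricted levels in both sexes. The comparison shares its restricted mice with the one above. In females edgeR called 2 of 10 members (6.1% of genes), both lower (2.59%) and none higher (3.51%). In males it called 5 of 10 (8.33%), 3 lower (3.49%) and 2 higher (4.84%). Mfsd2a ranged from 10.7 to 13.3 CPM (median 12.6) in refed females and from 11.5 to 15.96 CPM (median 13.7) in refed males. Every refed mouse was below every restricted mouse of its sex, and groups without overlap, in either direction, were found for 1.2% of genes in females and 1.12% in males. The log2 change from restriction was -1.10 ± 0.10 (edgeR adjusted p = 1.0e-10) in females and -0.89 ± 0.10 (adjusted p = 7.5e-09) in males. Apod ranged from 164 to 197 CPM (median 176) in refed females and from 155 to 205 CPM (median 173) in refed males, also without overlap with restricted mice. Of the 8 refed males, 3 were above all unrestricted males for Apod. Its log2 changes were -0.81 ± 0.07 (edgeR adjusted p = 6.4e-11) and -0.83 ± 0.07 (adjusted p = 1.7e-11).

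In males Abca1 fell on refeeding, from a median of 49.0 to 39.9 CPM, by -0.33 ± 0.08 (edgeR adjusted p = 0.0035), with 6 of 8 refed males below all restricted males. In females its change was -0.18 ± 0.08 (edgeR adjusted p = 0.17). Apoe and Lpl were called as higher in refed than in restricted males. Apoe ranged from 918 to 1207 CPM (median 1021) in restricted and from 957 to 1560 CPM (median 1244) in refed males, a log2 change of 0.25 ± 0.07 (edgeR adjusted p = 0.018). Lpl ranged from 11.1 to 15.01 CPM (median 13.1) and from 14.1 to 42.4 CPM (median 15.6), a change of 0.51 ± 0.16 (adjusted p = 0.035). The highest values of Apoe and Lpl, 1560 and 42.4 CPM, belonged to male control refed replicate 1, the library with the highest sum of skeletal muscle markers. It also had the highest sums of astrocyte markers, at 4916 CPM, and of mural cell markers, at 234 CPM, of the 48 libraries. The Lpl of female control restricted replicate 2, the other library with muscle markers, was the next highest of the 48, at 25.2 CPM. Without male control refed replicate 1 the male changes were 0.19 for Apoe (adjusted p = 0.0724) and 0.25 for Lpl (adjusted p = 0.25). Without male knockout refed replicate 1 neither gene was called either, at 0.22 for Apoe (adjusted p = 0.0527) and 0.48 for Lpl (adjusted p = 0.0728). The Lpl call was also lost without male control restricted replicate 4, male knockout restricted replicate 1 or 2, or male knockout refed replicate 3, with adjusted p-values of 0.0508 to 0.0705. All 5 red blood cell markers rose on refeeding in each sex, from a median sum of 483 to 1261 CPM in females and 445 to 1044 CPM in males, and their part in the changes of the carriers was not tested. The part of these markers in the Apoe and Lpl values was not tested beyond leaving out the libraries.

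**Figure D2:**
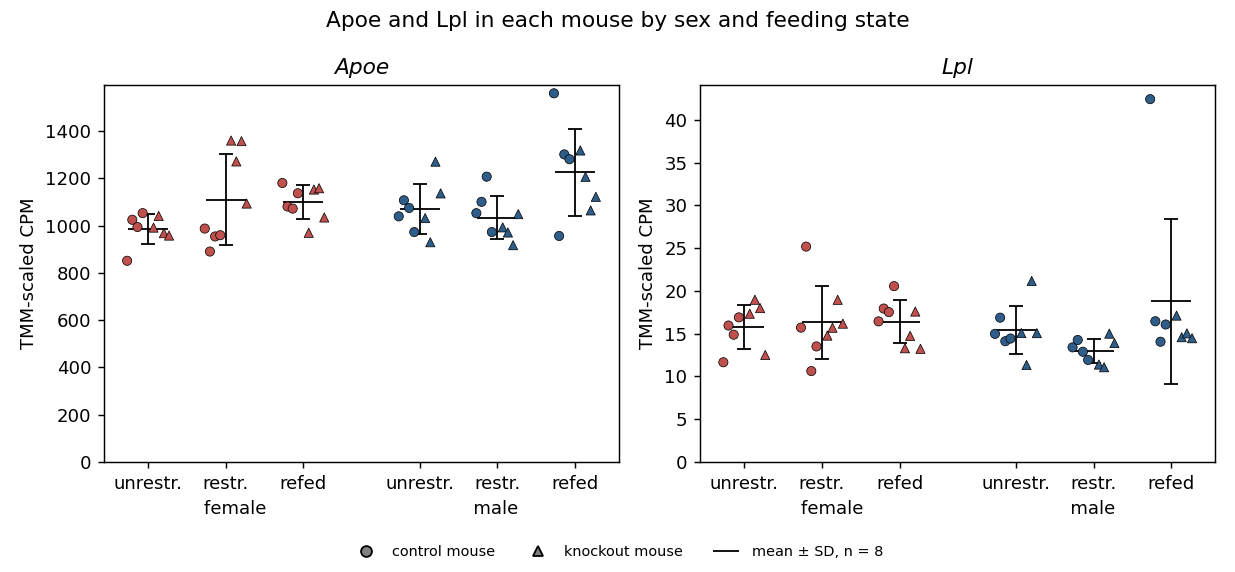
Level of Apoe (left) and Lpl (right) in each mouse, in TMM-scaled CPM on linear axes from 0, by sex and feeding state, with circles for control mice, triangles for knockout mice and lines for the mean ± SD of 8. A single refed male at 42.4 CPM sets the SD of Lpl, and the 4 restricted knockout females lie above the 4 restricted control females for Apoe. The share of all genes that separate in this way was not counted.

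Against mice that had never been restricted, refed mice differed at few genes. In females, edgeR called 0 of the 10 members, against 0.0403% of genes, with unadjusted p-values under 0.05 for 2 members. By DESeq2 the count was 0 and by limma 1, Fabp7. In males 1 of 10 was called, Fabp7, against 0.167% of genes. It was lower, as were 0.0403% of genes. The log2 difference of Mfsd2a was 0.04 ± 0.11 in females and 0.18 ± 0.10 in males, and that of Apod was -0.01 ± 0.07 and 0.07 ± 0.07. Apoe was 0.16 ± 0.07 and 0.20 ± 0.07 above the unrestricted level (edgeR adjusted p = 0.88 and 0.24).

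**Figure D3:**
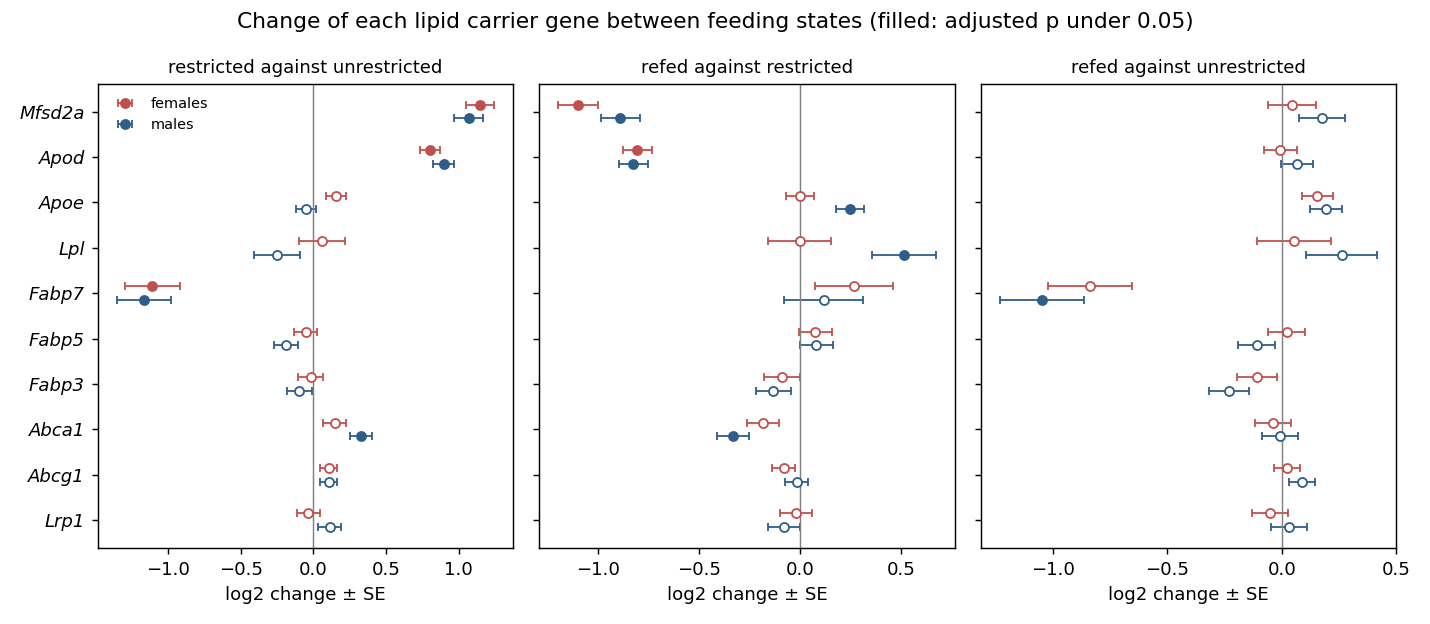
Log2 change ± SE of each of the 10 genes in females and males for restriction (left), refeeding against restriction (middle) and refed against unrestricted mice (right), from edgeR. Filled points have an adjusted p under 0.05. Mfsd2a and Apod sit near 1 and 0.8 to 0.9 in the left panel, near -1 and -0.8 in the middle panel and near 0 in the right panel, while Fabp7 lies near -1 in the left and right panels.

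Fabp7 values were low after refeeding, but its level also differed between library numbers. Refed females ranged from 22.1 to 29.1 CPM (median 25.1) and refed males from 16.6 to 27.7 CPM (median 19.6). In females all 8 refed mice were below all unrestricted mice, and in males 7 of 8 were. Groups without overlap, in either direction, were found for 0.121% of genes in females. The log2 difference from unrestricted mice was -0.84 ± 0.19 in females (edgeR adjusted p = 0.093) and -1.05 ± 0.18 in males (adjusted p = 0.0032). All refed libraries are numbered up to 28, while 11 of 16 unrestricted libraries are numbered from 29. Within unrestricted mice Fabp7 ranged from 27.6 to 40.8 CPM (median 33.3, n = 5) up to number 28 and from 33.9 to 66.4 CPM (median 49.1, n = 11) from number 29. Within restricted mice it ranged from 10.9 to 21.2 CPM (median 16.3, n = 7) up to 28 and from 12.7 to 38.6 CPM (median 25.5, n = 9) from 29. With the number range as a term in the fit, Fabp7 was 0.66 ± 0.11 higher in the later numbers on the log2 scale (edgeR adjusted p = 0.0030). It was the only 1 of the 10 members called for this term, against 0.645% of genes.

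Fabp7 fell with restriction within both number ranges. Its log2 change was -1.10 in females and -1.11 in males up to number 28, and -1.0 and -1.02 from number 29. In each of these fits at least some group held a single mouse, so only the sizes are given. With the number term its log2 changes were -1.02 ± 0.14 in females (edgeR adjusted p = 1.9e-06) and -1.09 ± 0.14 in males (adjusted p = 3.5e-07). The differences between refed and unrestricted mice then shrank to -0.41 ± 0.15 in females (adjusted p = 0.65) and -0.53 ± 0.16 in males (adjusted p = 0.53), so the male call was lost. In its place a rise on refeeding was called, of 0.61 ± 0.15 in females (adjusted p = 0.0098) and 0.56 ± 0.16 in males (adjusted p = 0.029). Among libraries numbered up to 28, the median of the 16 refed mice, 23.9 CPM, lay between those of the restricted (16.3) and unrestricted mice (33.3). Feeding state and library number cannot be fully told apart for refed mice, since none is numbered from 29.

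**Figure D4:**
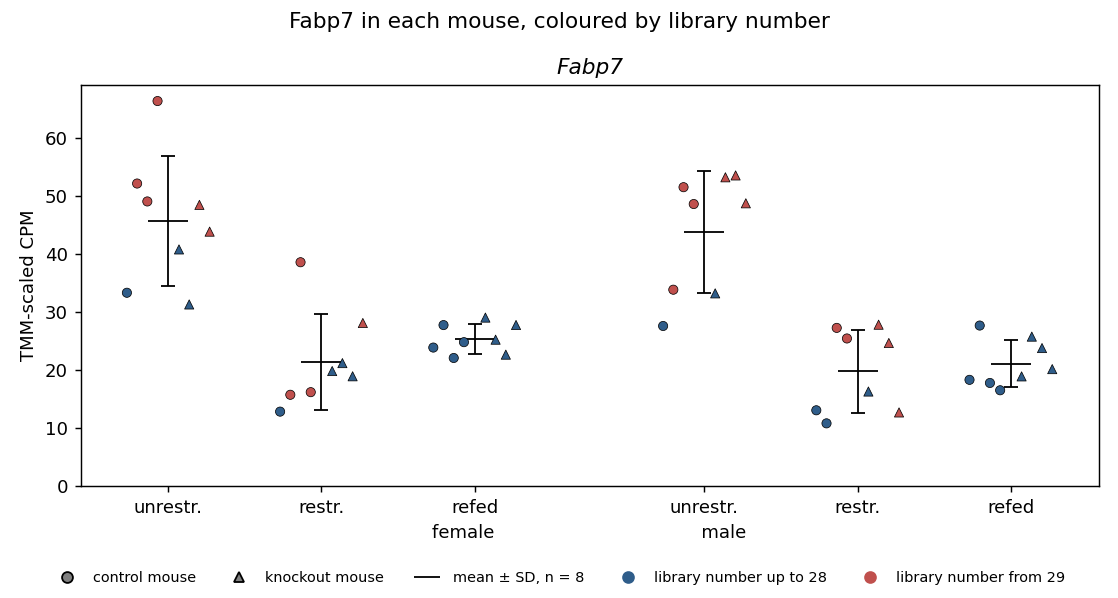
Level of Fabp7 in each mouse, in TMM-scaled CPM on a linear axis from 0, by sex and feeding state, with blue for libraries numbered up to 28, red for those from 29, circles for control and triangles for knockout mice, and lines for the mean ± SD of 8. Most of the high unrestricted values are red, and all refed points are blue.

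Averaged over sexes and feeding states, no lipid carrier was called for the Grin1 knockout. Over all sexes and feeding states, edgeR called 0 of the 10 members, against 0.00576% of genes, with unadjusted p-values under 0.05 for 0 members. By DESeq2 and limma the count was also 0. Mfsd2a averaged 17.5 CPM ± 7.23 (SD, n = 24) over the controls and 16.6 ± 6.63 over the knockouts, and Apod 223 ± 71.6 and 217 ± 67.6. The log2 difference was -0.06 ± 0.06 for Mfsd2a and -0.04 ± 0.04 for Apod, and that of Lpl was -0.11 ± 0.09, or -0.02 without male control refed replicate 1. With restriction, Mfsd2a rose by 1.20 in female controls, 1.09 in female knockouts, 0.99 in male controls and 1.14 in male knockouts, and Apod by 0.70, 0.90, 0.97 and 0.82, all called by edgeR. Fabp7 changed by -1.31 ± 0.27, -0.91 ± 0.26, -1.09 ± 0.26 and -1.23 ± 0.27 in the same order and was not called in female knockouts (edgeR adjusted p = 0.055). Apoe was called as higher in female knockouts, at 0.36 ± 0.10 (adjusted p = 0.035), against -0.05 ± 0.10 in female controls, and Abca1 in male knockouts, at 0.43 ± 0.11 (adjusted p = 0.021), against 0.23 ± 0.11 in male controls. In the order above, 3, 3, 3 and 4 of the 10 members were called, against 2.58%, 2.35%, 2.07% and 3.07% of all genes. The restriction change, knockout minus control, differed by 0.02 ± 0.14 for Mfsd2a, 0.03 ± 0.10 for Apod and 0.13 ± 0.26 for Fabp7, none past the threshold. For the interaction of genotype and feeding, edgeR, DESeq2 and limma each called 0 members (0% of genes), and 2, Fabp3 and Fabp5, passed 0.05 in edgeR without adjustment.

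Apoe differed between genotypes in restricted females. The 4 restricted control females were at 988, 891, 954 and 960 CPM and the 4 restricted knockout females at 1360, 1272, 1358 and 1094 CPM. The knockouts were all above the controls, and the share of all genes that separate in this way was not counted. The log2 difference of Apoe was 0.42 ± 0.10 (edgeR adjusted p = 0.033). It was the only 1 of the 10 members called in this group, against 0.386% of genes, 25 of which were higher (0.144% of genes). In the other 5 combinations of sex and feeding state edgeR called 0 members. The share of all genes called there was 0.0115% in unrestricted females, 0.225% in refed males and 0.00576% in each of the others. In refed males 2 members passed 0.05 without adjustment, Lpl at -0.55 and Fabp3 at -0.39, and none did in the remaining combinations. For Lpl the refed male controls were at 42.4, 16.5, 14.1 and 16.1 CPM, the first being the library with the most muscle markers, and the knockouts at 17.1, 14.6, 15.04 and 14.5 CPM, so the other 3 controls overlapped the knockouts. Of the restricted females, controls 2 to 4 and knockout 4 are numbered from 29 and the other 4 mice up to 28. Within each range Apoe was higher in the knockouts than in the controls, with a single control up to 28 and a single knockout from 29. The Apoe call in restricted females was lost with the number term (edgeR adjusted p = 0.0715) and with no filter on low counts (0.0575). It was lost in a fit to the 8 restricted females alone (0.108) and without the 2 libraries with muscle markers (0.0663). It was also lost without control replicate 2, 3 or 4 or without knockout replicate 1, 2 or 3. Over the libraries left out in turn the difference lay between 0.40 and 0.50 and the adjusted p between 0.00917 and 0.132. Whether the genotype difference depends on feeding state was tested for Apoe over both sexes and gave an edgeR p of 0.087 before adjustment.

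No carrier was called between the sexes. For male against female, edgeR, DESeq2 and limma called 0 of the 10 members, against 0.357% of genes, and unadjusted edgeR p-values were under 0.05 for 0 members. The log2 difference of Fabp7 was -0.15 ± 0.11, or -0.07 without female control restricted replicate 3. For the interaction of sex and feeding all 3 tools called 0 members (0% of genes), and Apoe had an unadjusted edgeR p of 0.034. The change of Apoe with restriction was lower in males than in females by -0.21 ± 0.10, and its change with refeeding was higher by 0.25 ± 0.10, neither past the threshold after adjustment (adjusted p = 0.72 and 0.53).

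Other genes of lipid handling were read from 5 lists chosen with earlier results of these data known. Of 47 other lipid carriers and receptors tested, 4 rose and 4 fell in females with restriction and 7 rose and 4 fell in males. Here and for the lists that follow, 3.02% of all genes rose and 3.25% fell in females, and 4.44% rose and 3.83% fell in males. The median log2 change of the 47 was -0.02 for females and -0.01 for males. Ptgds, prostaglandin D2 synthase, is a lipocalin like APOD and rose from 487 CPM ± 41.5 (SD, n = 8) to 789 ± 79.0 in females and from 496 ± 59.0 to 779 ± 96.0 in males. Spns2, a sphingosine-1-phosphate exporter of the same superfamily as MFSD2A, rose by 0.46 ± 0.07 and 0.42 ± 0.06. Angptl4, whose product inhibits LPL, was at 2.60 CPM ± 0.41 and 2.33 ± 0.51 in unrestricted females and males and rose by 1.00 ± 0.16 and 0.96 ± 0.16, while Lpl itself was not called. Stard4, a cytosolic sterol carrier, fell by 0.40 on the log2 scale in females and by 0.32 in males (SE 0.06 each). On refeeding all 4 moved the other way, each called by edgeR. The log2 changes were -0.59 and -0.68 for Ptgds, -0.30 and -0.31 for Spns2, -1.40 and -1.42 for Angptl4 and 0.32 and 0.19 for Stard4. These 4 were named for the smallest p for restriction among 12 of the list called in either sex. The refeeding comparison shares the restricted mice, so a move the other way is partly built in. Refed females were at 56.2 CPM for Spns2, against 50.4 in unrestricted females.

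Genes of cholesterol synthesis moved down with restriction. Of 24 tested, 13 fell in females and 15 in males and none rose, with median log2 changes of -0.21 and -0.22 against -0.01 and 0.00 over all genes. The entry enzyme Hmgcs1 changed by -0.46 ± 0.06 and -0.34 ± 0.06, and Sqle, which makes squalene epoxide, by -0.35 ± 0.05 and -0.33 ± 0.05. On refeeding 7 rose in females (3.51% of all genes) and 11 in males (4.84%) and none fell. Abca1 and Abcg1 are targets of the liver X receptor, a sensor of oxysterols. Of 13 other genes of this receptor group, 1 rose and 3 fell in females, and in males 1 fell and none rose. Pltp, phospholipid transfer protein, which is in both this list and that of the carriers, fell in both sexes by 0.32 and 0.31 on the log2 scale (SE 0.09 each).

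Of 19 genes that make, activate or transfer fatty acids, polyunsaturated and other, 1 rose and 3 fell in females with restriction. In males 2 rose and 4 fell. The elongases Elovl7 (-0.51 ± 0.07 and -0.28 ± 0.07), Elovl6 (-0.35 ± 0.05 and -0.18 ± 0.05) and Elovl5 (-0.23 ± 0.05 and -0.25 ± 0.05) fell, and Elovl4 rose by 0.17 ± 0.05 and 0.18 ± 0.05. Of 14 genes of lipid droplets and lipases, 4 rose and none fell in females, and 2 rose and 1 fell in males. Pnpla2, adipose triglyceride lipase, rose by 0.97 ± 0.08 and 1.02 ± 0.08. Plin4, a lipid droplet coat protein, rose by 3.66 ± 0.35 and 2.93 ± 0.31.

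In a whole hemisphere, a change in the number of cells of a type and a change in RNA per cell cannot be told apart. Summed markers of the endothelium and of astrocytes, the cells known to make many of these carriers, overlapped between feeding states. The 10 endothelium markers summed to a median of 283 CPM in unrestricted, 318 in restricted and 288 in refed females, and to 251, 320 and 298 CPM in males. In males these sums ran from 227 to 308 CPM without restriction and from 280.2 to 356.8 CPM after it. Of the markers, Slc2a1, the glucose transporter of the barrier, rose with restriction by 0.62 ± 0.10 in females and 0.68 ± 0.10 in males, and Tek fell by 0.59 and 0.42. In females 1 rose and 1 fell and in males 3 rose and 1 fell. The median log2 change of the 10 endothelium markers was -0.13 in females, where the median sum was higher, and 0.07 in males. The 10 astrocyte markers summed to medians of 4201, 4255 and 4086 CPM in unrestricted, restricted and refed females and of 3994, 4127 and 4159 CPM in males. Of them, 2 rose and 1 fell in each sex. Gjb6, a gap junction gene, rose by 0.73 ± 0.06 in both sexes, and Aqp4, the water channel, fell by 0.50 in females and 0.46 in males (SE 0.08 each). Against the shares of all genes given above, 3.02% higher and 3.25% lower in females and 4.44% and 3.83% in males, of 7 microglia markers 3 fell in females and 5 in males, where the sums of 210 to 231 CPM in restricted mice did not overlap the 248 to 281 CPM of unrestricted mice. The 7 mural cell markers summed to medians of 193, 174 and 194 CPM in unrestricted, restricted and refed females and 178, 154 and 189 CPM in males. Of them 2 fell with restriction in females and 1 in males, and 2 and 4 rose on refeeding. Of 9 oligodendrocyte markers 2 fell and 1 rose in females and 6 fell in males. Their sums had medians of 14350.2, 14188.1 and 13362.4 CPM in unrestricted, restricted and refed females. In males the medians were 11919.5, 12293.1 and 11549.1 CPM, and the ranges overlapped. The 7 neuron markers summed to medians of 5153, 5227 and 5175 CPM in females and 5579, 5337 and 5238 CPM in males. The part of these shifts in the changes of the carriers was not tested. Male control unrestricted replicate 1, the unrestricted mouse with the highest Mfsd2a, also had the highest endothelium sum of the unrestricted males, 308 CPM. Male knockout unrestricted replicate 1 had a sum of 302 CPM, and its Mfsd2a lay within the range of the other unrestricted mice. The part of this sum, which includes Slc2a1, in the Mfsd2a values was not tested.

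Mfsd2a and Apod followed each other across feeding states, with no such relation among mice of the same group. Their log2 CPM had a Pearson r of 0.88 over the 48 libraries, which share the feeding groups, and of 0.04 over deviations from the 12 group means. By the same measure over the 48 libraries, the genes most like Mfsd2a were Fkbp5 (r = 0.95), Htra1 (0.94), Plin4 (0.93), Cdkn1a (0.93) and Pnpla2 (0.93). Those most like Apod were Cdkn1a (0.93), Pnpla2 (0.92), Sult1a1 (0.92), Gjb6 (0.91) and Etnppl (0.91). All 8 of these genes rose with restriction in both sexes by the edgeR test, Htra1 least, by 0.60 and 0.55, and Plin4 most. Over deviations from the group means, Mfsd2a was most like Slc2a1 (r = 0.78), Fkbp5 (0.76), Htra1 (0.75), Tekt4 (0.70) and Arhgef10 (0.68), so 2 of its 5 nearest genes were the same by both measures. Apod had lower values there, with Chek2 (0.66), Mbnl1 (0.62), Calca (0.61), Hoxb6 (0.61) and Cenpc1 (0.60), none of them called for restriction. These are descriptions over 48 libraries that share depth and groups, and they were picked as the highest of 17352 genes.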

How the data were processed

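The authors deposited 1 table of estimated counts per gene symbol for 48 libraries, made with fastp, STAR and Salmon on the genome mm39 per the submitters' processing notes. The roles and versions of these tools are not given in the sources used here. Counting by strand is not stated either. Columns were matched by library name, and replicate numbers only name mice in the order of the records.

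The members and all lists were chosen with earlier results of these data known. Counts were rounded to whole numbers (library totals moved by at most 51.1). Genes were filtered with filterByExpr (minimum count 10, minimum total 15) and scaled with TMM (factors 0.913 to 1.03). A quasi-likelihood model of edgeR 4.0.16 (R 4.3.3) had 1 coefficient for each of the 12 groups and all 48 libraries, and contrasts averaged the genotypes or sexes with equal weight. P-values were adjusted with the Benjamini-Hochberg method over 17352 genes. SE values came from the F statistics, and log2 CPM had a prior count of 2. The steps were tested on simulated data. No 2 mice of a group agreed within counting noise: over 72 pairs the lowest chi-square per gene was 2.35. Reads without molecular identifiers carry more than counting error, and mice are the replicates.

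Named genes were the 10 members, the 5 genes most like Mfsd2a and Apod by each of 2 correlations, up to 4 genes of each list with the smallest p for restriction among those called, and Grin1 and Aldh1a1. Markers of other cells were named after their values were seen. Alternatives were DESeq2 1.42.0, RLE size factors, limma 3.58.1 voom with sample weights, no filter, age as a covariate, a term for library numbers, an adjusted p under 0.1, a fit to only the groups compared, and leaving out each library. Chosen after seeing the data were fits without the 2 libraries with muscle markers, to libraries numbered up to 28 or from 29, and all settings for the Apoe difference in restricted females. Promoter windows are from RefSeq and positions from GENCODE M39. Protein sequences were not used here.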

Additional observations from a re-analysis of the deposited data

Results flagged for a closer look

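In 7 of 120 sets of 4 mice (10 genes in 12 groups), 1 mouse lay farther from the nearest of the others than Dixon's 95% critical value allows, and chance alone flags about 1 in 20 such sets. Mfsd2a was at 15.96 CPM in male knockout refed replicate 1, with the others between 13.5 and 13.9 CPM. Lpl was at 42.4 CPM in male control refed replicate 1, the library with the highest muscle marker sum, with the others between 14.1 and 16.5 CPM. Fabp7 was at 38.6 CPM in female control restricted replicate 3, with the others between 12.9 and 16.2 CPM. In male control refed replicate 2 Fabp7 was high, at 27.7 CPM against 16.6 to 18.4 CPM, and Abca1 was low, at 27.7 CPM against 39.3 to 40.5 CPM. The lowest Lrp1 of all 48 libraries, 316 CPM, was in the same mouse. Its library had the lowest marker sums of endothelium (218 CPM) and oligodendrocyte precursors (167 CPM) and the highest of neurons (6461 CPM) and microglia (295 CPM) of the 48, and their part in these values was not tested. Fabp5 was at 111 CPM in female knockout restricted replicate 1, with the others between 104 and 105 CPM. Fabp3 was at 70.6 CPM in male knockout unrestricted replicate 2, with the others between 53.8 and 56.1 CPM.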

How the results depend on the processing

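There were 708 values for 81 pairs of a member and a comparison under 10 settings. Of them 682 kept their side of the threshold, 17 lost and 9 gained the call, and no called value changed sign. The 682 include values without a call that changed direction. Mfsd2a in refed against unrestricted females, positive in the main fit, was at -0.08 with the library number term. The calls of Mfsd2a and Apod held under all settings run. For refed against restricted males the number of members called fell from 5 to 3 with only the groups compared, without the 2 muscle libraries and with only libraries numbered up to 28. For refed against unrestricted females it rose from 0 to 1 (Fabp7) at an adjusted p under 0.1, with no filter, with limma voom and with only the groups compared. For refed against unrestricted males it went from 1 to 0 with the library number term and with only libraries numbered up to 28, and to 3 with limma voom, where Apoe (0.19) and Fabp3 (-0.27) joined Fabp7. The cause was not tested. Leaving out each library gave 3 to 3 members called for restriction in females, 4 to 5 in males, 2 to 2 for refed against restricted females and 3 to 5 in males. It gave 0 to 1 for refed against unrestricted females (1 without female control unrestricted replicate 1 or female control restricted replicate 3) and 1 to 3 in males (3 without male control refed replicate 2), and 0 to 0 for genotype, sex and both interactions. With only libraries numbered up to 28 Abca1 was not called in males for refeeding (-0.26) either, where fewer mice entered and some groups held a single mouse. No paired analysis was possible because replicate numbers were given in the order of the records and pair no mice between groups. Depth limits Mfsd2a and Lpl most, with as few as 89 and 90 counts in a library.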
